A study of Mus musculus with 2 samples.

Results

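Cluster 16 of the authors' clustering of mouse esophagus held 72 of 4853 single cells, 24 of 2472 in the control library and 48 of 2381 in the Keap1 cKO library. Its members were all cells that the authors' deposited annotation placed in cluster 16, which the same annotation names T cell. By their marker UMIs (unique molecular identifiers, each counting 1 captured transcript), the control cells were mostly keratinocytes, 16 of 24. The Keap1 cKO cells were mostly T cells, 34 of 48, with 11 antigen-presenting cells and no keratinocyte. The name T cell therefore fitted 40 of the 72 cells, and the members are called below the cycling cells of cluster 16.

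The control mice carried Keap1 floxB/floxB alleles without Cre. The Keap1 cKO mice carried K5CreERT2::Keap1 floxB/floxB, in which an inducible Cre recombinase is driven by the keratin 5 promoter, active in basal keratinocytes. Both were of a strain labelled Hybrid of C57BL/6J and BALB/c, and both groups carried the floxed allele. The sources used here give neither the age of the animals, nor the number pooled per library, nor how Cre was induced. The muscle layer was removed, the tissue was dissociated with trypsin-EDTA, and 1 droplet library per genotype was made from polyA RNA with the 10x 3' kit. With 1 library per genotype no difference between genotypes could be tested, so the intervals below are 95% exact intervals that cover counting error only, and a genotype effect cannot be told apart from a difference between 2 libraries.

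A dividing cell copies its DNA in S phase and separates the copies in mitosis after the G2 gap. Each stage has its own transcripts: the MCM helicase and nucleotide-supply genes near the start of S phase, the replication-dependent histone genes during S phase, and cyclin B, kinesin and kinetochore genes in G2 and mitosis. In the esophagus, basal keratinocytes divide to renew the stratified epithelium. Gamma-delta T cells that make interleukin 17, and Langerhans cells, antigen-presenting cells of stratified epithelia, can also divide within the tissue.

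The cells of cluster 16 were deep. Control cells held a median of 27664.5 UMIs (7530 to 45603) and Keap1 cKO cells 18913.5 UMIs (7589 to 42140), against medians of 11293.5 and 8193 over the whole libraries. Of the 5 cell barcodes that both libraries shared, 0 were in cluster 16. The cluster made up 0.971% of control cells (0.623 to 1.44) and 2.02% of Keap1 cKO cells (1.49 to 2.66). Since the 2 libraries filled the cluster with different lineages, the 2 shares do not measure 1 population.

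Top2a, which encodes the topoisomerase that untangles replicated chromosomes, and Mki67, which encodes the proliferation antigen Ki-67 that coats mitotic chromosomes, marked the cluster in both libraries. Top2a UMIs per cell ranged from 5 to 90 in control cells (median 31.5) and from 0 to 87 in Keap1 cKO cells (median 23), and 1 of the 72 cells, a Keap1 cKO T cell, held none. Mki67 UMIs ranged from 2 to 63 (median 25) and from 3 to 77 (median 20). Every cell held at least 5 UMIs of the 2 genes together. As the free-RNA background, 2 of 178 control and 3 of 120 Keap1 cKO red blood cells held a Top2a UMI, never more than 1, at median depths of 10831 and 10271.5 UMIs. These genes helped to form the cluster, so their level is a description.

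The promoters of 4 genes are shown as examples: both cluster markers, the mitotic cyclin gene Ccnb2 and the origin-licensing helicase gene Mcm6. Each is the 250 bases before the RefSeq start on the gene's own strand, in build GRCm38.p6. Capitals mark 3 motifs on either strand: the cell-cycle homology element TTTGAA, the CCAAT box, and E2F cores spelled TTCCCGC or TTGGCGC.
Top2a: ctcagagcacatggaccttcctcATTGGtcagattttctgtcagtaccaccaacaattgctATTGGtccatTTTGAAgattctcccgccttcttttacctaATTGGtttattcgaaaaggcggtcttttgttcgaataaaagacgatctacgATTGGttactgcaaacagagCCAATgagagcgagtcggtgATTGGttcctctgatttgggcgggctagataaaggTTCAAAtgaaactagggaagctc
Mki67: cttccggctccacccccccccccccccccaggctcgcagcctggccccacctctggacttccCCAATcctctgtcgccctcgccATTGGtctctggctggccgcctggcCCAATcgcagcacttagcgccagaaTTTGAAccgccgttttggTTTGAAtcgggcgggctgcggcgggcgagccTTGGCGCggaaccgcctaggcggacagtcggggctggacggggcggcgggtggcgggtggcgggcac
Ccnb2: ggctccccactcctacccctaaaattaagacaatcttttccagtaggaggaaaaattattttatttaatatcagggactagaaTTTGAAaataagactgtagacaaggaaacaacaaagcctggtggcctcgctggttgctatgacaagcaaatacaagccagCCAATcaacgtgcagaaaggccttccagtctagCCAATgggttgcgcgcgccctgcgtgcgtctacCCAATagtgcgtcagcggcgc
Mcm6: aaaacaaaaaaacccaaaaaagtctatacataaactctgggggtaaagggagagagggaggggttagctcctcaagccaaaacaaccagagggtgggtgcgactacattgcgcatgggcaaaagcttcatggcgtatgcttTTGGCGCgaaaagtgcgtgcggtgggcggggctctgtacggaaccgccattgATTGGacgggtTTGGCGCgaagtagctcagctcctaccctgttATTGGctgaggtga
The 4 windows lie at chr11:99024190-99024439, chr7:135716380-135716629, chr9:70421555-70421804 and chr1:128359706-128359955, all for genes on the minus strand. Top2a had 6 CCAAT boxes and 2 TTTGAA elements and no E2F core, and Mki67 had 3, 2 and 1. Ccnb2 had 3 CCAAT boxes and 1 TTTGAA element, and Mcm6 had 2 CCAAT boxes, 2 E2F cores and no TTTGAA element. None of the matches overlapped another. Of 32851 promoters in the RefSeq table, 33.8% held a CCAAT box, 15.99% a TTTGAA element and 5.62% an E2F core in the same 250 bases. Among the 16996 promoters of genes measured in these cells, the closer background for the lists below, these shares were 34.3%, 11.7% and 8.66%. Of 52 promoters of 47 genes matched from a list of 54 G2/M genes, 75% held a CCAAT box, 40.4% a TTTGAA element and 13.5% an E2F core. Of 35 promoters of 31 genes matched from a list of 43 S phase genes, the shares were 65.7%, 14.3% and 42.9%. A match is a run of letters and not a measured binding site.

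Lineage was first called by the marker list with the largest share of genes seen in a cell, out of 17 lists. In the control library this rule called 16 keratinocytes, 5 T cells, 2 fibroblasts and 1 erythroid cell. In the Keap1 cKO library it called 32 T cells, 7 erythroid cells, 3 fibroblasts, 3 macrophages, 2 keratinocytes and 1 blood endothelial cell. Of the 7 Keap1 cKO cells called erythroid, 5 held class II genes and 2 held CD3 chains at the levels given below, and asking for at least 2 UMIs per marker still called 7 cells erythroid. Another rule, chosen after the data were seen, asked whether the summed UMIs of a lineage's defining genes exceeded 3 times the 99th percentile of the red blood cells in the same library. It is the rule used from here on. It called 16 keratinocytes, 6 T cells, 1 antigen-presenting cell and 1 fibroblast in the control library. In the Keap1 cKO library it called 34 T cells, 11 antigen-presenting cells, 1 endothelial cell, 1 cell with markers of 2 lineages and 1 cell of none.

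The keratin, CD3 and class II genes separated the lineages with wide gaps. Keratin 5 and keratin 14 (Krt5 and Krt14), the keratin pair of basal keratinocytes, summed to 34 to 445 UMIs in the 16 control keratinocytes (median 225). The other control cells held at most 7 and the Keap1 cKO cells at most 11, below the cut of 15 in that library. The CD3 chains of the T cell receptor complex (Cd3d, Cd3e and Cd3g) summed to 17 to 49 UMIs in the 6 control T cells and to 17 to 89 in the 34 Keap1 cKO T cells. Outside the T cells they reached 1 UMI in control cells and 4 in Keap1 cKO cells, the cell with 2 lineages apart. The class II presentation genes Cd74, H2-Aa, H2-Ab1 and H2-Eb1 summed to 504 UMIs in the control antigen-presenting cell and to 226 to 1711 in the 11 of the Keap1 cKO library, against at most 8 and 17 elsewhere. Over all 72 cells, 10 lay within 1.5-fold of the cut of some lineage. Endothelial genes reached 3 UMIs, the cut itself, in T cells. With the cut at 2 times the percentile, 7 Keap1 cKO and 3 control cells held markers of 2 or more lineages. Keap1 cKO T cells then numbered 30 and control keratinocytes 14.

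**Figure D1:**
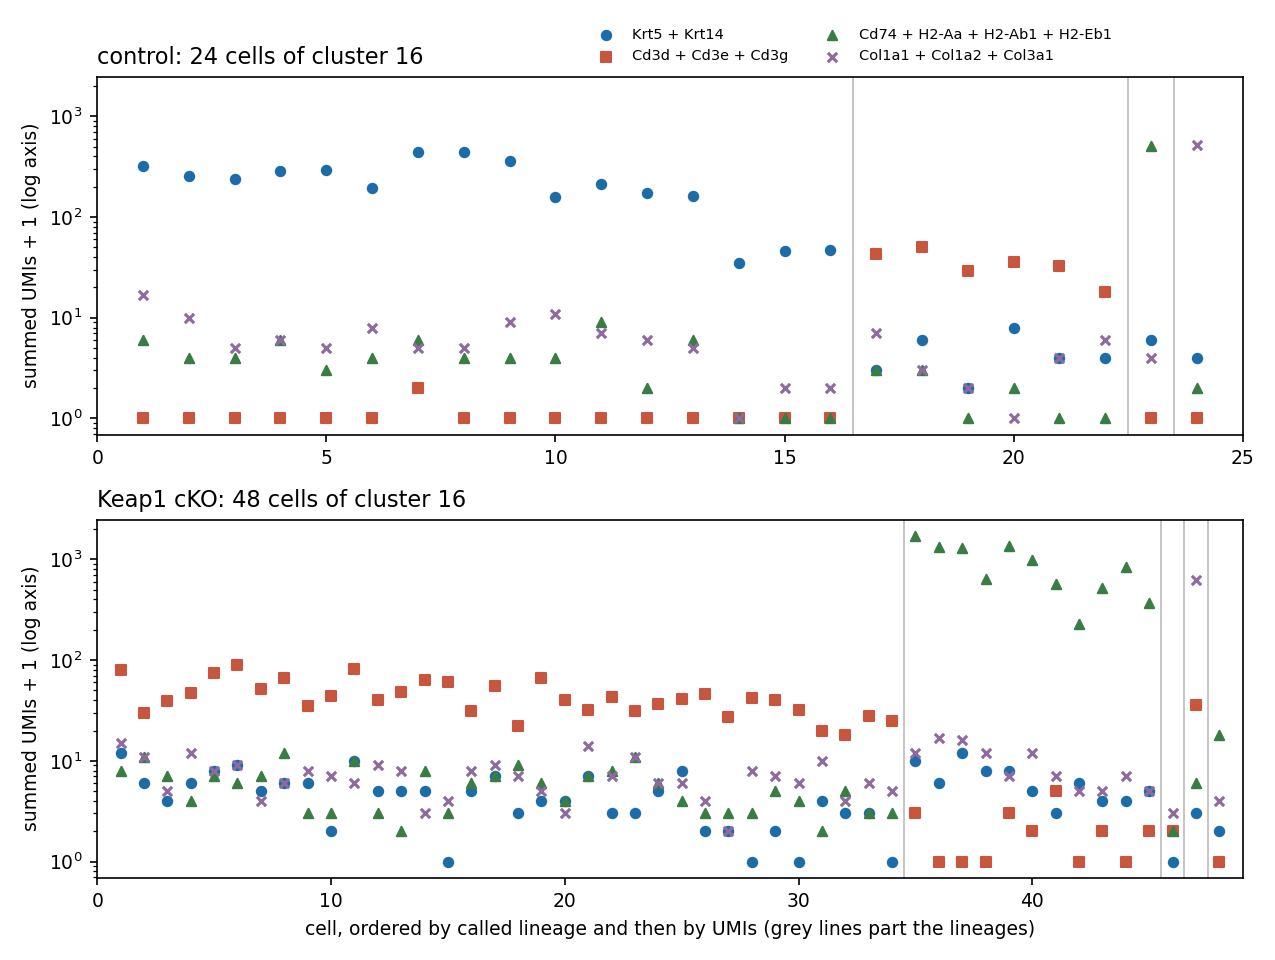
Summed UMIs plus 1 of the defining genes of 4 lineages (log axis) in each cell of cluster 16, with the control library above and the Keap1 cKO library below. Krt5 and Krt14 are high in the 16 cells at the left of the control panel and reach at most 11 UMIs in the Keap1 cKO panel, where CD3 or class II genes are high instead.

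In the Keap1 cKO library 2 cells fell outside a single lineage. The cell with 2 lineages held 35 CD3 UMIs, 16 UMIs of the gamma-delta receptor chain Trdc and 623 UMIs of the collagen genes Col1a1, Col1a2 and Col3a1. No doublet caller was run, and whether this was 1 droplet with 2 cells was not tested. The cell of no lineage held 0 CD3 UMIs but 11 UMIs of Gata3, 11 of Il7r, 15 of Trbc2 and 22 of Il17f, and 57 of Top2a. The endothelial cell held 10 UMIs of Pecam1, Cdh5, Kdr and Emcn and 4 of the lymphatic regulator Prox1. The control fibroblast held 515 collagen UMIs, with 90 UMIs of Top2a and 63 of Mki67.

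The T cells of the 2 libraries carried different receptors. In the Keap1 cKO library 28 of 34 T cells, 82.4% (65.5 to 93.2), held the gamma-delta constant chain Trdc above background and not the alpha-beta chain Trac. Another 4 held Trac alone, 1 held both and 1 held neither. In the control library 1 of 6 held Trdc, 4 held Trac and 1 held neither, a gamma-delta share of 16.7% (0.421 to 64.1). The 28 gamma-delta cells held 8 to 137 Trdc UMIs (median 36.5) and at most 3 Trac UMIs. The 4 Keap1 cKO alpha-beta cells held 13 to 25 Trac UMIs and at most 1 Trdc UMI. The same imbalance was present among all T cells: 400 of 535 Keap1 cKO and 16 of 111 control T cells were called gamma-delta, with 79 and 60 cells of neither chain at the shallower depth of those cells. The share of gamma-delta cells that fell in cluster 16 was 7.0% (4.70 to 9.96) in the Keap1 cKO library and 6.25% (0.158 to 30.2) in the control library. The share of all T cells in the cluster was 6.36% (4.44 to 8.77) and 5.41% (2.01 to 11.4), and those intervals overlapped. Of the 535 Keap1 cKO T cells, 44 held at least 5 Top2a and Mki67 UMIs, 34 in cluster 16 and 10 outside it.

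**Figure D2:**
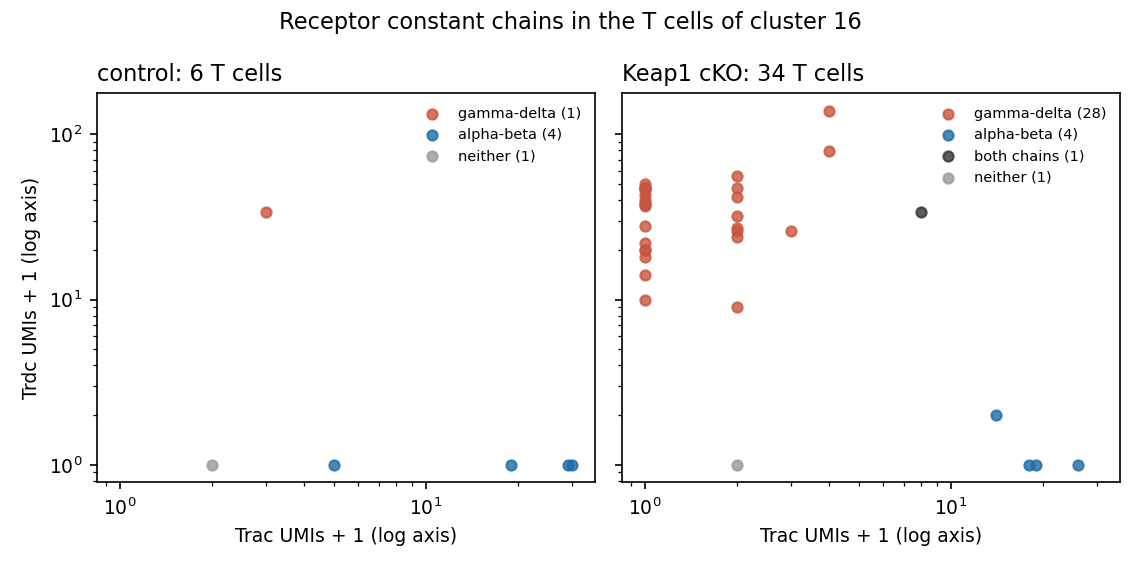
Trdc and Trac UMIs plus 1 (log axes) in each T cell of cluster 16, by library and called kind. The 28 gamma-delta cells of the Keap1 cKO library sit at 8 to 137 Trdc UMIs and at most 3 Trac UMIs, and the 4 control alpha-beta cells hold 4 to 29 Trac UMIs and no Trdc.

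Cycling gamma-delta cells held the transcripts of their effector program. Il17a, the gene of the cytokine interleukin 17A, was seen in 27 of the 28 Keap1 cKO gamma-delta cells, with 0 to 57 UMIs (median 14). Il17f, its close relative, was seen in 19 of 28, with 0 to 40 UMIs (median 2). Cd163l1, a scavenger receptor of interleukin 17 gamma-delta cells, was seen in all 28, with 3 to 37 UMIs (median 20). Red blood cells with an Il17a UMI numbered 5 of 120 in that library, each with 1 UMI. Among the 4 control alpha-beta cells, 3 held Il17f, with 5, 10 and 29 UMIs, and the control gamma-delta cell held neither Il17a nor Il17f.

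Summed over the T cells, 2212 genes had at least 50 UMIs in the 2 libraries together. In Keap1 cKO T cells 7.23% of them were at least 2-fold higher and 4.07% at least 2-fold lower than in control T cells, with a median log2 ratio over all genes of 0.01. Of 12 genes of the type 17 gamma-delta list, 11 had enough UMIs, and 9 of these were at least 2-fold higher, with a median log2 ratio of 2.08. Trdc stood at 1873 CPM (the gene's UMIs scaled to the total UMIs of the group) in the Keap1 cKO and 382 CPM in the control T cells, a log2 ratio of 2.29 (1.80 to 2.84). Il17a had 932 CPM in Keap1 cKO and 220 CPM in control T cells, with a log2 ratio of 2.08 (1.43 to 2.83). Tcrg-C1, a gamma chain constant gene, had the largest log2 ratio of the list, 3.26 (2.20 to 4.58), from 446 and 7 UMIs. Il17f did not differ beyond counting error, with 398 against 509 CPM and a log2 ratio of -0.35 (-0.83 to 0.15). Trac was lower in Keap1 cKO T cells, at 169 against 949 CPM, a log2 ratio of -2.49 (-2.93 to -2.05). These ratios compare 28 gamma-delta cells of 34 with 1 of 6, so a change within a cell type cannot be told apart from the makeup of the 2 groups.

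Of 47 measured genes of the G2/M list, 9 were at least 2-fold lower in the Keap1 cKO T cells, 0 were at least 2-fold higher and 38 did not reach 2-fold, beside 4.07% of all genes lower. The median log2 ratio of the list was -0.66. Top2a stood at 1409 CPM in Keap1 cKO and 2269 CPM in control T cells, a log2 ratio of -0.69 (-0.91 to -0.45). Mki67 had 1351 CPM in Keap1 cKO and 2153 CPM in control T cells, with a log2 ratio of -0.67 (-0.90 to -0.43). Cenpf, a kinetochore protein gene, had a log2 ratio of -1.25 (-1.55 to -0.94), and Hmgb2, a chromatin protein gene and the most abundant of the list, -0.51 (-0.64 to -0.38). The 22 measured genes of the S phase list had a median log2 ratio of -0.17, and the 26 measured histone genes -0.11, and both medians changed sign under other settings (0.074 for S phase at a minimum of 20 UMIs, and 0.27 for histones with the first lineage rule). Between the 4 alpha-beta cells of each library alone, with 410 genes measured, the G2/M median was -1.52 and the S phase median turned to 1.48. The control side rests on 6 cells.

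Keap1, the repressor of the transcription factor NRF2 and the floxed gene, gave 24 UMIs in the Keap1 cKO T cells and 2 in the control T cells, a log2 ratio of 0.85 (-1.16 to 3.98). Tags come from the 3' end of the transcript and the deleted exons are not given in the labels, so tags from outside the deletion are possible, and the keratin 5 promoter that drives Cre is not one of T cells. The value therefore does not check the genotype labels. Nfe2l2, which encodes NRF2, gave 16 and 3 UMIs. Among NRF2 targets, Gclc gave 27 and 0 UMIs, Nqo1 2 and 0, Slc7a11 2 and 0, and Srxn1 8 and 1. Of 18 targets 5 had enough UMIs, with a median log2 ratio of -0.07. Of the 5, 1 was at least 2-fold higher, beside 7.23% of all genes between these T cells. In the control keratinocytes of the cluster the same genes gave 49 UMIs of Keap1, 100 of Nfe2l2, 42 of Nqo1, 34 of Gclc, 0 of Slc7a11 and 1 of Srxn1. With no keratinocyte in the Keap1 cKO part of the cluster, the cluster holds no comparison of these genes between genotypes in the lineage of the keratin 5 promoter.

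Cycle phase was called from 2 gene lists, 43 genes of S phase and 54 of G2/M, each scored against other genes of like expression. All 16 control keratinocytes were called G2/M (79.4 to 100%). Among the 34 Keap1 cKO T cells 25 were called G2/M, 73.5% (55.6 to 87.1), and 9 were called S. Of the 6 control T cells 5 were called G2/M and 1 S. All 11 Keap1 cKO antigen-presenting cells and each of the other 5 cells were called G2/M. Among the Keap1 cKO gamma-delta cells 22 of 28 were called G2/M, against 2 of 4 alpha-beta cells. When each list's share of UMIs was set against the median of the cluster instead, G2/M calls fell to 7 of 16 control keratinocytes, 15 of 34 Keap1 cKO T cells and 0 of 11 antigen-presenting cells. The score called 62 of 72 cells G2/M, so the phase of single cells depends on the rule.

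Histone genes gave another reading of the phase. They led the cluster: among the 10 genes with the highest ratio over all other cells, 9 were replication-dependent histone genes and 1 was Esco2, an acetyltransferase that ties sister chromatids together in S phase. Hist1h2ap was the most abundant, with 11436 UMIs in 71 of the 72 cells. Hist1h1b, a linker histone gene, gave 2781 UMIs in 66 cells. Histone genes form families of near-identical copies, so the values of single members are uncertain, and most histone mRNAs lack the poly(A) tail that the assay primes on. The summed share of 61 histone genes is therefore used below.

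The histone share split the T cells into 2 groups. In Keap1 cKO T cells it ran from 0.0601% to 5.73% of a cell's UMIs (median 2.23), with a gap between 0.250% and 0.833%. Below the gap were 10 of 34 cells, 29.4% (15.1 to 47.5), and all 10 were called G2/M and were gamma-delta cells. Above it were 15 cells called G2/M and the 9 called S. In control T cells 1 of 6 cells lay low, at 0.128%, and the others at 1.32% to 3.09%. The keratinocytes had no such low group: all 16 lay between 0.783% and 2.27% (median 1.70). The 11 Keap1 cKO antigen-presenting cells lay between 0.768% and 3.51% (median 1.54). The control fibroblast had a low share, 0.0644%.

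Single cycle genes overlapped across the gap in the Keap1 cKO T cells. Pcna, the sliding clamp of DNA polymerase, gave 0 to 2 UMIs (median 1) in the 10 cells with a low histone share, 0 to 16 (median 4) in the 15 with a high share called G2/M, and 6 to 21 (median 10) in the 9 called S. Ube2c, whose product marks cyclins for destruction, gave 0 to 50 UMIs (median 7) in the low cells, 1 to 37 (median 16) in the high cells called G2/M, and 0 to 5 (median 1) in those called S. Ube2c therefore did not divide the low from the high cells called G2/M, and several cells with a high histone share held many Ube2c and few Pcna UMIs. Ube2c was also in 33 of 120 red blood cells, with up to 10 UMIs. Ccnb2 went the other way, with 2 to 11 UMIs (median 8) in the low cells and 1 to 8 (median 4) in the high cells called G2/M. Medians of Ccnb1, a cyclin B gene, were 2.5 and 2 in these 2 groups, and those of Cenpf 10 and 11. Pcna and Ube2c belong to the lists that called the phase, so their difference between S and G2/M cells is no separate evidence. The low cells were also shallower, with a median of 10631.5 UMIs against 17299 in the high cells called G2/M, and the part of depth was not tested.

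**Figure D3:**
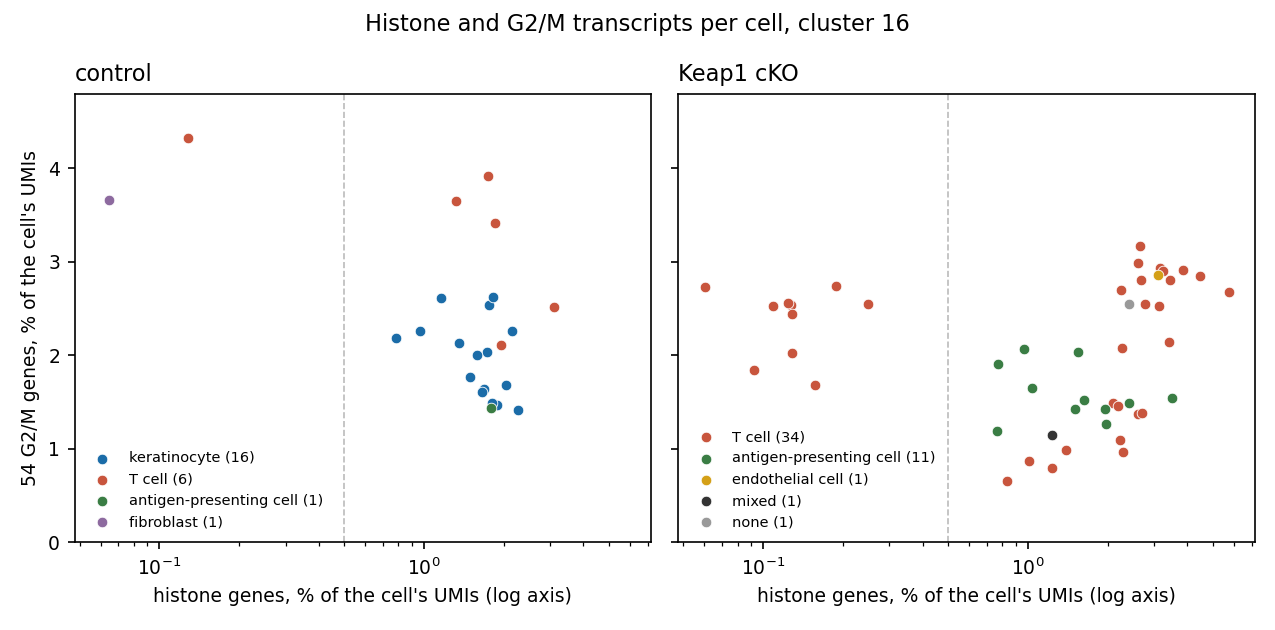
Share of each cell's UMIs from 61 histone genes (log axis) and from the 54 genes of the G2/M list in cluster 16, by library and lineage. The dashed line is at 0.5%: 10 Keap1 cKO T cells, 1 control T cell and the control fibroblast lie to its left, and all 16 keratinocytes lie to its right.

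The 16 control keratinocytes held basal transcripts, with suprabasal ones that were also common in free RNA. Krt15, a basal keratin gene, gave 50 to 396 UMIs per cell (median 195.5), and Krt13, a suprabasal keratin gene of the esophagus, gave 5 to 325 (median 50.5). Krt13 exceeded Krt5 in 6 of the 16 cells and Krt15 in 1. Krt4, the partner keratin gene of Krt13, gave 0 to 58 UMIs. Of 178 control red blood cells, 165 held Krt13, with up to 41 UMIs, and 133 held Krt4, with up to 16. Krt15 was seen in 147 of them, with up to 8. The lower Krt13 and Krt4 values thus lay within free-RNA levels, and expression of both programs in each cell was not tested. Ivl, which encodes the cornified envelope protein involucrin, gave 0 in every cell. Of the 16, 3 stood apart in depth, with 7530 to 11998 UMIs and 2043 to 2867 genes against 21561 to 45603 UMIs and 4655 to 6228 genes in the other 13. Those 3 had 0.115% to 0.611% mitochondrial UMIs against 3.06% to 4.94%, and 34 to 46 UMIs of Krt5 and Krt14 against 156 to 445. Their histone shares, 1.16% to 2.27%, lay within or just above the range of the others, 0.783% to 2.15%.

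Cluster 15, annotated epithelial, held most other dividing control keratinocytes, and the cells of cluster 16 differed from them by S phase transcripts. Of 4815 genes with at least 50 UMIs, 3.34% were at least 2-fold higher and 6.81% at least 2-fold lower in the 16 keratinocytes than in the 71 of cluster 15, with a median log2 ratio of -0.14. The clusters were formed from these genes, and a gene with few UMIs in cluster 15 passed the minimum only if it was high in cluster 16, so the counts are descriptions. Of 61 histone genes 19 had enough UMIs and 16 were at least 2-fold higher, with a median log2 ratio of 5.17. All 12 measured genes of the 13 for DNA synthesis and nucleotide supply were at least 2-fold higher. Pcna stood at 191 CPM against 13.9 CPM, a log2 ratio of 3.78 (3.08 to 4.54). Rrm2, a subunit of ribonucleotide reductase, had the largest ratio, 4.49 (3.41 to 5.77), and Dut, a nucleotide pool enzyme gene and the most abundant, 1.47 (1.14 to 1.79). Among licensing genes, Mcm6 gave 21 and 10 UMIs, a log2 ratio of 2.80 (1.65 to 4.05). Fbxo5, an inhibitor of the anaphase-promoting complex, had a log2 ratio of 3.39 (2.72 to 4.12).

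Genes of the G2/M list went both ways, with a median log2 ratio of 0.06. Of 53 measured, 6 were at least 2-fold higher, beside 3.34% of all genes. Another 5 were at least 2-fold lower, beside 6.81% of all genes. Cdc20, the activator of the anaphase-promoting complex, stood at 307 CPM in cluster 16 and 684 CPM in cluster 15, a log2 ratio of -1.16 (-1.42 to -0.90). Cenpe, a kinetochore motor gene, had -1.09 (-1.42 to -0.78), and Cenpa, the centromeric histone gene, -1.08 (-1.32 to -0.85). Ccnb2 was just short of 2-fold, with 221 against 439 CPM and a log2 ratio of -0.99 (-1.30 to -0.68). Top2a was higher, with 1261 against 431 CPM and a log2 ratio of 1.55 (1.38 to 1.71), while Mki67 did not differ beyond counting error, with 728 against 705 CPM and a log2 ratio of 0.05 (-0.14 to 0.23). Of 8 basal genes 0 reached 2-fold in either direction, and of 6 measured suprabasal genes 1 was at least 2-fold higher. Krt5 had a log2 ratio of -0.11 (-0.19 to -0.04) and Krt14 0.16 (0.08 to 0.24). Of 12 genes induced by dissociation 7 were at least 2-fold lower, among them Atf3 at -2.93 (-4.83 to -1.53) and Fos at -1.26 (-1.70 to -0.85), whose part in the other differences was not tested. Against the 305 control keratinocytes of cluster 4, with 6.91% of 8519 genes at least 2-fold higher and 12.9% lower, the 45 measured G2/M genes were each at least 2-fold higher, with a median log2 ratio of 4.08, again as a description. The G1 cyclin gene Ccnd2 was lower there, at 156 against 601 CPM.

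Dividing keratinocytes with a high histone share were present in both libraries, in different clusters. Keratinocytes here are the cells over the Krt5 and Krt14 cut, so epithelial cells with little of these basal keratins are not counted. The histone threshold of 0.5% was set after the data were seen. Such keratinocytes with at least 5 UMIs of Top2a and Mki67 and at least that histone share numbered 16 of 512 in the control library, 3.13% (1.80 to 5.03). All 16 were in cluster 16. In the Keap1 cKO library they numbered 16 of 205, 7.80% (4.53 to 12.4), and all 16 were in cluster 4, annotated epithelial. None of the 205 Keap1 cKO keratinocytes was in cluster 16, which allows a share of up to 1.46% by a limit of 3 counts, with the exact interval reaching 1.78%. The Keap1 cKO cells in question had a median histone share of 1.26%, a G2/M share of 1.03% and 49567.5 UMIs. The control cells had 1.70%, 2.02% and 31474.5 UMIs, so depth and G2/M transcripts also differed between the 2 groups, and the part of either in the clustering was not tested. By contrast all 24 Keap1 cKO T cells, all 5 control T cells and all 11 Keap1 cKO antigen-presenting cells that met the same 2 criteria were in cluster 16, as was 1 of 2 control antigen-presenting cells. No red blood cell met them.

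Control keratinocytes with at least 5 Top2a and Mki67 UMIs outside cluster 16 had low histone shares. In cluster 15 the 67 such cells lay between 0.0109% and 0.343%, and in cluster 4 the 40 such cells lay between 0.0238% and 0.4001%. In the Keap1 cKO library 29 such keratinocytes of cluster 4 spanned 0.0398% to 1.82%, with 13 below 0.5%. Cells with markers of 2 or more lineages were not called keratinocytes, and 9 of 65 control and 10 of 75 Keap1 cKO ones held at least 5 such UMIs. Over all cells called keratinocytes by the Krt5 and Krt14 cut, the share with at least 5 UMIs of the 2 genes was 24.6% (20.9 to 28.6) in the control library. In the Keap1 cKO library this share was 18.05% (13.0 to 24.01). With every cell thinned to 7500 UMIs the shares were 13.5% (10.6 to 16.8) and 10.7% (6.35 to 16.6), with 16 and 46 cells too shallow and left out. These intervals overlapped.

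**Figure D4:**
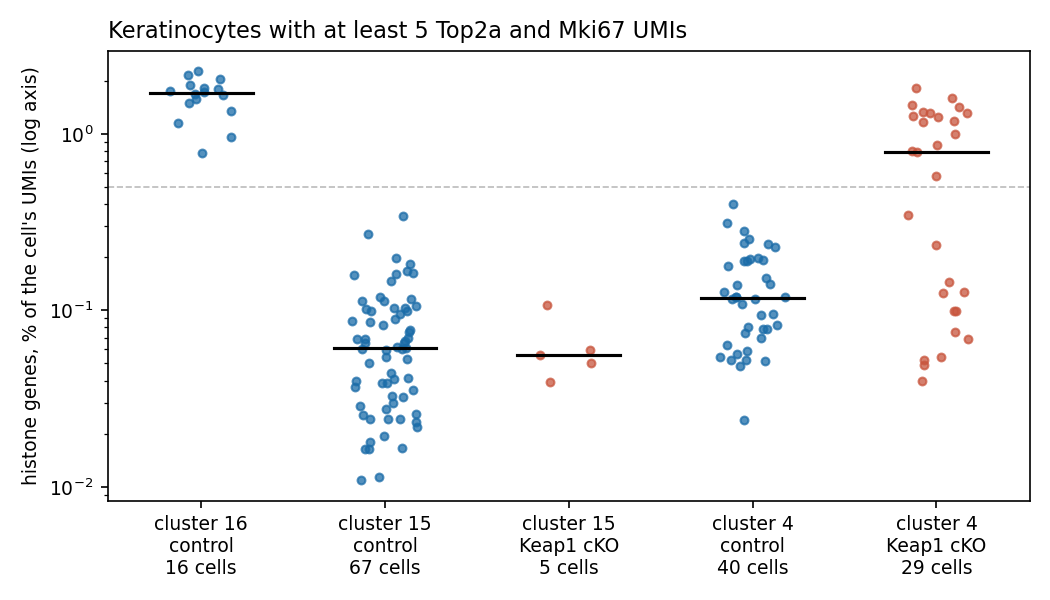
Share of UMIs from histone genes (log axis) in each keratinocyte with at least 5 Top2a and Mki67 UMIs, by cluster and library, with the median as a black line and the 0.5% threshold dashed. The 16 control cells of cluster 16 lie between 0.783% and 2.27%, and the cells of the Keap1 cKO library in that range lie in cluster 4.

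Gamma-delta T cells of cluster 16 were set against those of cluster 3 for their effector genes. Against 355 gamma-delta cells of cluster 3 in the same library, 28 cells of cluster 16 had 5.09% of 7117 genes at least 2-fold higher and 8.29% at least 2-fold lower, with a median log2 ratio of -0.12. Of 12 type 17 genes 0 were at least 2-fold higher and 1, the interleukin 23 receptor gene Il23r, was at least 2-fold lower, from 38.3 and 84.1 CPM. Il17a had 1139 against 1437 CPM, with a log2 ratio of -0.33 (-0.47 to -0.20), and Trdc 2348 against 1966 CPM, with a log2 ratio of 0.26 (0.16 to 0.35). Cycle genes formed the cluster, and many passed the UMI minimum only through it, so their counts are descriptions. Of 42 measured G2/M genes 41 were at least 2-fold higher, with Top2a at a log2 ratio of 5.26 (4.98 to 5.55). Of 13 DNA synthesis genes all 13 were at least 2-fold higher, led by Rrm2 at 5.38 (4.76 to 6.05). Among CDK inhibitors, Cdkn2c had a log2 ratio of 2.72 (2.28 to 3.16). Ccnd2, a G1 cyclin gene, was lower, at 119 against 415 CPM, a log2 ratio of -1.80 (-2.22 to -1.40). Cells of cluster 16 were also deeper, with a median of 15725.5 UMIs against 8310, and the part of depth was not tested. In the control library the 6 T cells were set against 103 of clusters 3 and 11, with 7.57% of 2113 genes at least 2-fold higher and 9.42% lower. There 21 of 22 measured G2/M genes were at least 2-fold higher, by the same choice of cells, and Ccnd2 again was lower, with 9 UMIs in the 6 cells and a log2 ratio of -2.35 (-3.50 to -1.41).

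The 11 Keap1 cKO antigen-presenting cells were of more than 1 kind. Cd207, which encodes the Langerhans cell lectin langerin, stood above background in 5 cells, with 90, 30, 26, 18 and 9 UMIs. The adhesion gene Epcam, also a Langerhans cell gene, stood above background in those 5 and in 1 more, with 6 to 49 UMIs. The complement gene C1qa, a macrophage gene, stood above background in 3 cells, with 99, 88 and 19 UMIs, and the cell with 19 also held 24 of Epcam. The chemokine receptor gene Ccr7, carried by migrating dendritic cells, gave 20 UMIs in 1 cell. The remaining 2 cells held 84 and 22 UMIs of the lysozyme gene Lyz2 with 13 and 9 of the mannose receptor gene Mrc1. Both also held genes listed for conventional dendritic cells, as did cells of the other kinds. The cell with 84 held 4 UMIs of Flt3, and the cell with 22 held 9 of Clec10a, 5 of Cd209a and 4 of Irf4. Flt3 also gave 7, 6 and 4 UMIs in cells with Cd207. Irf8, of the same list, gave 11 UMIs in 1 cell with Cd207 and 8 and 6 in cells with C1qa. Xcr1 and Clec9a, genes of type 1 conventional dendritic cells, gave 0 in all 11. The control antigen-presenting cell held 0 of Cd207, 47 of Lyz2 and 8 of Cd209a. Among 120 red blood cells of the Keap1 cKO library, 0 held Cd207, 9 held C1qa and 31 held Lyz2.

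Most antigen-presenting cells of the same library lay in cluster 2, annotated myeloid, and cluster 12, annotated B cell. Against the 90 of cluster 12, 5.90% of 3811 genes were at least 2-fold higher and 5.46% at least 2-fold lower in cluster 16, with a median log2 ratio of -0.02. Cd207 had 585 CPM in cluster 16 and 454 CPM in cluster 12, with a log2 ratio of 0.37 (0.11 to 0.62), and Epcam at 376 and 381 CPM, -0.02 (-0.34 to 0.29). Against the 283 of cluster 2, with 9.60% of 5874 genes at least 2-fold higher and 21.0% lower, Cd207 had a log2 ratio of 7.89 (6.64 to 9.53), from 176 and 5 UMIs. Mrc1 had -2.83 (-3.46 to -2.26). Top2a stood at 1114 CPM in cluster 16, 97.7 CPM in cluster 12 and 12.4 CPM in cluster 2. As a description only, since cycle genes formed the cluster, 36 of 37 measured G2/M genes were at least 2-fold higher than in cluster 12, with a median log2 ratio of 2.34. The share of all antigen-presenting cells that fell in cluster 16 was 2.86% (1.43 to 5.05) of 385 in the Keap1 cKO library and 0.617% (0.0156 to 3.39) of 162 in the control library. Not all dividing ones were in the cluster. Of the 385, 26 held at least 5 Top2a and Mki67 UMIs, 11 in cluster 16 and 15 outside it. Of the 162, 5 did, 1 in cluster 16 and 4 outside it.

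**Figure D5:**
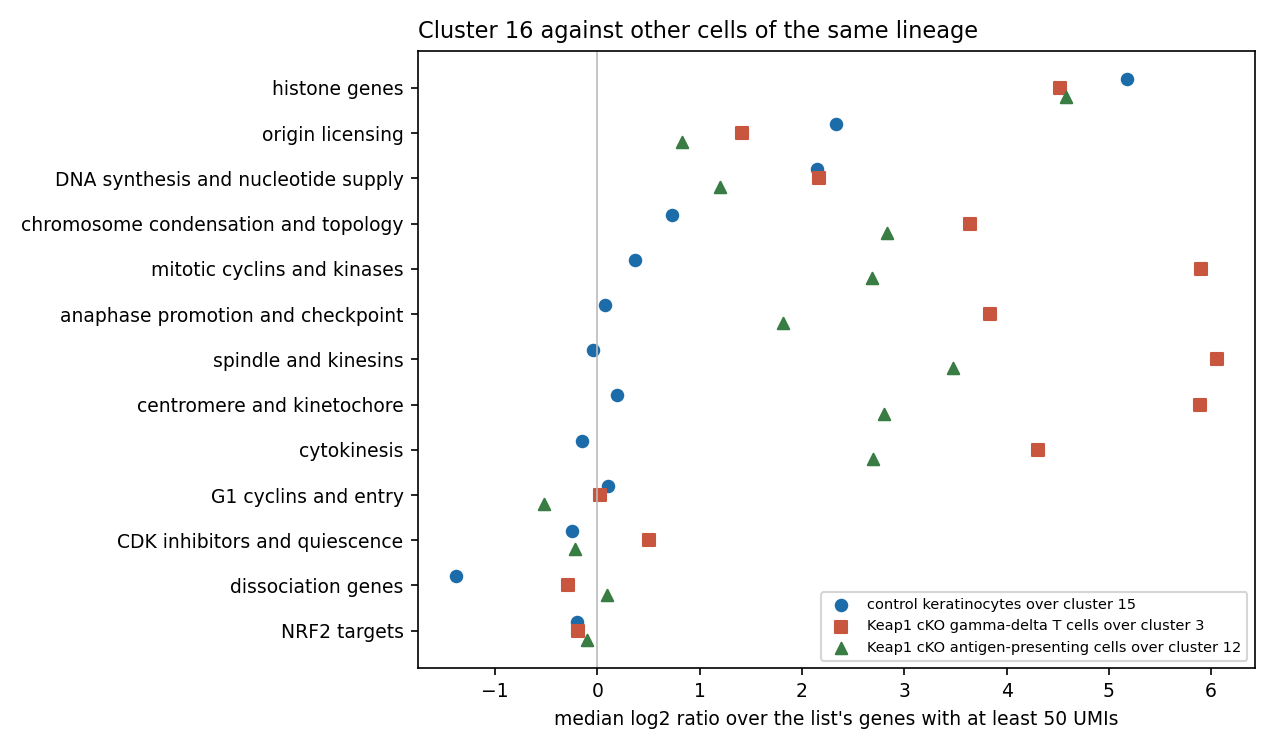
Median log2 ratio of each list's genes with at least 50 UMIs in cluster 16 over other cells of the same lineage and library: control keratinocytes over cluster 15, Keap1 cKO gamma-delta T cells over cluster 3 and Keap1 cKO antigen-presenting cells over cluster 12. Histone genes lie at 5.17, 4.53 and 4.58. The lists from mitotic cyclins to cytokinesis lie between -0.15 and 0.37 for keratinocytes and at 1.81 or more for the other 2 groups. Of all cells in the reference clusters, 70 of 75 (control, cluster 15), 8 of 378 (Keap1 cKO, cluster 3) and 14 of 178 (Keap1 cKO, cluster 12) held at least 5 Top2a and Mki67 UMIs.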

How the data were processed

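Single cells of 1 control and 1 Keap1 cKO mouse esophagus library were sequenced with a 10x 3' assay. Build mm10, Seurat 4.0.2, R 4.1.1 and Cell Ranger 6.0.1 are named per the submitters' processing notes, with no account of filters, normalization or doublet removal. The deposited values were on a natural log scale, the ln of 1 plus UMI counts scaled to 10000 per cell, as shown by the file: cell sums returned to 10000, and 100% of positive values were whole UMIs (within 0.01) after division by each cell's smallest step. Cluster and cell type came from the authors' deposited annotation. Summed UMIs were compared as log2 ratios of UMIs scaled to each side's total (CPM) for genes with at least 50 UMIs over both sides, called at 2-fold, with a side at 0 set to 3 counts. Intervals are exact 95% (Poisson, conditional binomial or Clopper-Pearson) and cover counting error only. Depth was 30501227 UMIs in 2472 control cells and 26036522 in 2381 Keap1 cKO cells, over 18595 genes. No doublet caller was run.

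The members and gene lists were chosen with earlier results of these data known. Named genes were Top2a, Mki67, Keap1, Nfe2l2 and 4 NRF2 targets, the 10 highest ratios of the cluster, and in each list the most abundant members and those of largest ratio. Other genes named, the defining-gene lineage rule, the receptor calls, the 5-UMI minimum and the 0.5% histone threshold were chosen after values were seen. No lineage had 10 cells in both libraries, so no genes were named from a ranking of all genes between libraries. Promoters came from the RefSeq table of GRCm38.p6, which was matched by symbol. Histone promoters were not used here. Scripts ran under Python 3.11.15 with numpy 2.4.6, scipy 1.17.1 and pandas 2.3.3, and the comparison was tested on simulated data.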

Additional observations from a re-analysis of the deposited data

How the results depend on the processing

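No paired analysis was possible because each genotype had 1 library, and for the same reason no replicate could be left out. Of the values under other settings listed in advance, 67 stayed within 1.5-fold of the reported one and 24 did not, and of those added after seeing the data 40 did and 14 did not. Some medians near 0 changed sign. Between T cells the S phase median was 0.074 at 20 UMIs, and the histone median went from -0.11 to 0.27 with the fixed lineage rule and 0.23 in alpha-beta cells alone. The S phase median in alpha-beta cells and the type 17 median over cluster 11 also did, as given below. Leaving out mixed cells changed nothing because they already stood apart, so the values of that setting could not move. They are counted among the 67. By the share of list genes seen, the cluster held 0 control and 3 Keap1 cKO dendritic cells or macrophages and 2 Keap1 cKO keratinocytes. Every other lineage rule gave 1 control dendritic cell or macrophage. For Keap1 cKO keratinocytes the count was 1 with at least 2 UMIs per marker, 1 after thinning, 0 by mean UMIs and 0 by defining genes at 2, 3 or 5 times the red-cell percentile. For Keap1 cKO dendritic cells or macrophages it was 11 by mean UMIs, 11 at 3 or 5 times and 10 at 2 times. The 10 include the cell of no lineage described above, with 17 class II UMIs, so they are not all among the 11. With at least 2 UMIs per marker, only 1 dendritic cell and 2 macrophages were called, and after thinning 3 macrophages and no dendritic cell. Phase by UMI share was centred on the cluster's own medians, so fewer G2/M calls were built in. It gave 7 control keratinocytes in G2/M instead of 16, 15 Keap1 cKO T cells instead of 25, and 0 antigen-presenting cells instead of 11. Thinning left these counts at 16, 25 and 11. Between T cells, 160 genes were higher and 90 lower by 2-fold. These counts were 540 and 347 of 4728 genes at 20 UMIs, 46 and 30 of 1054 at 100 UMIs, and 27 and 42 of 410 in alpha-beta cells alone, where fewer genes were tested. The type 17 median rose from 2.08 to 2.96 with the fixed lineage rule. In alpha-beta cells alone the G2/M median went from -0.66 to -1.52 and the S phase median from -0.17 to 1.48, and the cause was not tested. Ratios to other cells moved with the reference cluster. The keratinocyte G2/M median was 1.90 over clusters 4 and 15, 4.08 over 4 and 0.063 over 15. Keap1 cKO T cells over cluster 11 gave 5.22 for histones (4.53 over 3 and 11) and 1.75 for type 17 genes (-0.27). Antigen-presenting cells over clusters 2 and 12, 2 alone and 12 alone gave histone medians of 5.25, 6.07 and 4.58, G2/M medians of 3.52, 4.41 and 2.34, and Langerhans medians of 1.61, 7.89 and 0.073. With thresholds of 0.3% and 1% the histone-high keratinocytes numbered 19 and 14 in the control and 17 and 11 in the Keap1 cKO library.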
